A study of Mus musculus with 12 samples.

Results

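RNA bisulfite sequencing (RNA BS-seq) of mouse neural stem cells was examined at the cytosines of 4 genes of the actin cytoskeleton, Fscn1, Enah, Farp2 and Myo6. A cytosine was taken as a site when, in both replicates of at least 1 condition, it had a coverage of at least 20, at least 6 unconverted reads and a methylation level of at least 10%, the level being unconverted reads as a share of unconverted plus converted reads. Of 6462 such sites in all genes, 6 lay in these genes: 2 in Fscn1, 1 in Enah, 1 in Farp2 and 2 in Myo6. They were chosen among 3796 listed cytosines of the 4 genes, and none of these cytosines was also named with another gene. The genes were picked with earlier results of these data known, and the levels chose the sites, so the sites were selected on the measured levels and those levels are a description. Differences in level are therefore given with their error and the overlap of replicates, and with no p-value.

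The cells were wild-type male C57BL/6 neural stem cells from the subventricular zone of mice aged 6 to 8 weeks, grown as a monolayer on laminin with EGF and bFGF. They were cultured for 4 days with folic acid at 1.5 µM (LF), 10 µM (MF) or 80 µM (HF). Poly(A) RNA was taken from total RNA (LF, MF, HF) and from pooled gradient fractions with more than 3 ribosomes (pLF, pMF, pHF), so that 6 conditions with 2 biological replicates each gave 12 libraries. The libraries listed between 779105 and 2043837 cytosines each, at a median coverage of 335 to 920. Listed cytosines with a level under 5% were 0.128 to 0.193% unconverted.

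Of 9 neural stem cell markers, 8 were listed in all 12 libraries, with a median coverage of 565.5 to 2317.5 in a library. The remaining marker, Sox2, for which the study stained the cells, had no cytosine named with it alone in any library. Cytosines named with more than 1 gene were left out of these marker counts. The count therefore does not show that Sox2 mRNA was unread. Of 31 markers of neurons, oligodendrocyte lineage, astrocytes, microglia, endothelium, mesenchyme and ependyma, 10 were listed in all 12. These 10 were 4 of 6 mesenchymal and mural, 2 of 6 neuron, 2 of 6 oligodendrocyte lineage, 1 of 4 astrocyte and 1 of 4 microglia markers. None of the 3 endothelial and 2 ependymal markers was listed in all 12. Median coverage in a library was 89 to 293 for mesenchymal and mural markers. It was 55 to 461.5 for neuron and 37 to 552.25 for oligodendrocyte lineage markers. The 2 libraries labelled HF stood apart. At the sites the study lists for them, 2 of 93 and 1 of 88 coverages were within 2% of the deposited value, against at least 93.8% of sites in each of the other 10 libraries. Their gene coverage correlated with that of the LF and MF libraries at 0.692 to 0.725, while LF and MF libraries correlated with each other at 0.866 to 0.882 (across genes, which are not independent replicates). They are called HF-labelled here, and differences over both fractions are also given without them. Of the 6 sites, 4 met the rule in another condition, of 3872 such sites in all genes.

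Cells extend, steer and crawl by assembling actin filaments at the membrane, and neural stem cells and their progeny use this machinery for process outgrowth and migration. Fscn1 encodes fascin, which packs filaments into the tight bundles of filopodia. Enah encodes Mena, an Ena/VASP protein that keeps filament ends growing. Farp2 encodes a guanine nucleotide exchange factor that acts downstream of semaphorin receptors, and Myo6 encodes myosin VI, the motor that moves toward the pointed end of the filament. 5-Methylcytosine (m5C) is set on mRNA by enzymes such as NSUN2 and NSUN6. Bisulfite turns unmodified cytosine into uracil, read as T, and leaves m5C as C, so the readout is the share of unconverted reads. Folate carries the carbon units from which cells make S-adenosylmethionine, the methyl donor.

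The bases around each site are shown because the letters before the cytosine differ between the 4 sites called in another condition and the 2 called only in the HF-labelled libraries. Each line gives 21 bases of the transcript strand from GRCm38 (mm10), 5′ to 3′, with the measured cytosine in capitals. Every site matched a cytosine of the reference.
Fscn1 coding site: cgccctggaaCagagctgcgc
Farp2 coding site: tacagctgagCagggtgcatc
Enah coding site: gctgcaattgCgggagcaaaa
Myo6 3′ UTR site: accagggagtCagggtctcac
Fscn1 3′ UTR site, HF-labelled only: cctcagggggCcctttcccaa
Myo6 coding site, HF-labelled only: cagcagggggCaccaaaggaa

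The letters after the cytosine were alike in several of them. The Fscn1 coding, Farp2 and Myo6 3′ UTR sites read CAG, and the last 2 read CNGGG, with N any base. Enah also read CNGG. These motifs were searched on the transcript strand from the cytosine onward after the sequences were seen, and overlap one another. Among the 3872 sites called outside the HF-labelled libraries, 3.82% read CAG, 4.98% CNGG and 2.58% CNGGG, against 11.7 to 12.9%, 8.07 to 10.0% and 1.80 to 2.35% of listed cytosines with a level under 5%. The 2 HF-labelled sites instead had 5 G directly before the cytosine. GGGGGC was found at 841 of 2590 sites called only in HF-labelled libraries (32.5%) and at 7 of the 3872 others (0.181%).

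Fscn1 gave the most deeply read site, and its level was higher in polysome than in total mRNA at every folate concentration. The site is at chr5:142961220 on the plus strand, in exon 1 of 5 of Fscn1-201 (gene ENSMUSG00000029581, chr5:142960343-142973185). It is base 772 of the 1479 bases of coding sequence, the first base of its codon, and it lies in 2 of the 3 coding transcripts. In total mRNA 667 of 8742 reads (7.63%) and 662 of 8986 (7.37%) were unconverted in the LF replicates, 611 of 8162 (7.49%) and 680 of 9168 (7.42%) in MF, and 776 of 6518 (11.9%) and 648 of 5789 (11.2%) in the HF-labelled replicates. In polysome mRNA the counts were 2445 of 13475 (18.1%) and 2234 of 11768 (19.0%) in pLF, 1465 of 7667 (19.1%) and 1473 of 7153 (20.6%) in pMF, and 2334 of 9135 (25.6%) and 3299 of 14157 (23.3%) in pHF. All 6 polysome libraries were above all 6 total libraries, and the 4 LF and MF libraries lay closest together.

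The condition means at the Fscn1 coding site were 7.50% ± 0.185 (SD, n = 2) in LF, 7.45% ± 0.0481 in MF and 11.6% ± 0.505 in HF. The polysome means were higher, at 18.6% ± 0.591 (pLF), 19.9% ± 1.05 (pMF) and 24.4% ± 1.60 (pHF). The site thus met the rule in HF, pLF, pMF and pHF, and missed it in LF and MF by its level alone. Averaged over folate concentrations, polysome exceeded total by 12.1 percentage points. By concentration, the difference was 11.1 ± 0.438 points (SE) for pLF against LF, 12.4 ± 0.743 for pMF against MF and 12.9 ± 1.18 for pHF against HF. Without the libraries labelled HF and pHF the mean difference was 11.7 points over 8 libraries. The pHF against HF difference over pooled reads was 12.6 points, and it was lowest without pHF replicate 1, at 11.7.

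The Fscn1 difference is read against those of sites in all genes. Taken were sites that met the rule in either condition compared and had 20 or more reads in all 4 libraries, so the compared levels also chose them. The level over pooled reads was higher in polysome at 82.7% of 480 sites under LF, at 70.0% of 403 under MF and at 44.7% of 649 under HF. The median difference was 8.44 points under LF (10th to 90th percentile -3.21 to 30.4), 5.25 under MF (-6.85 to 16.6) and 0 under HF (-21.7 to 24.0), and the Fscn1 value lay inside this range each time. Among those that met the rule in both fractions, the median was 5.73 points at 215 sites under LF, 2.79 at 210 under MF and 0 at 230 under HF. The Fscn1 coding site belongs to this last set under HF only, since it missed the rule in LF and MF. That set rests on the HF-labelled libraries, which stood apart from the study's own coverages. All of these background sites also precede the study's later filters. Under LF and MF it was taken through its polysome level alone, so those 2 medians are not a like background for it.

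**Figure D1:**
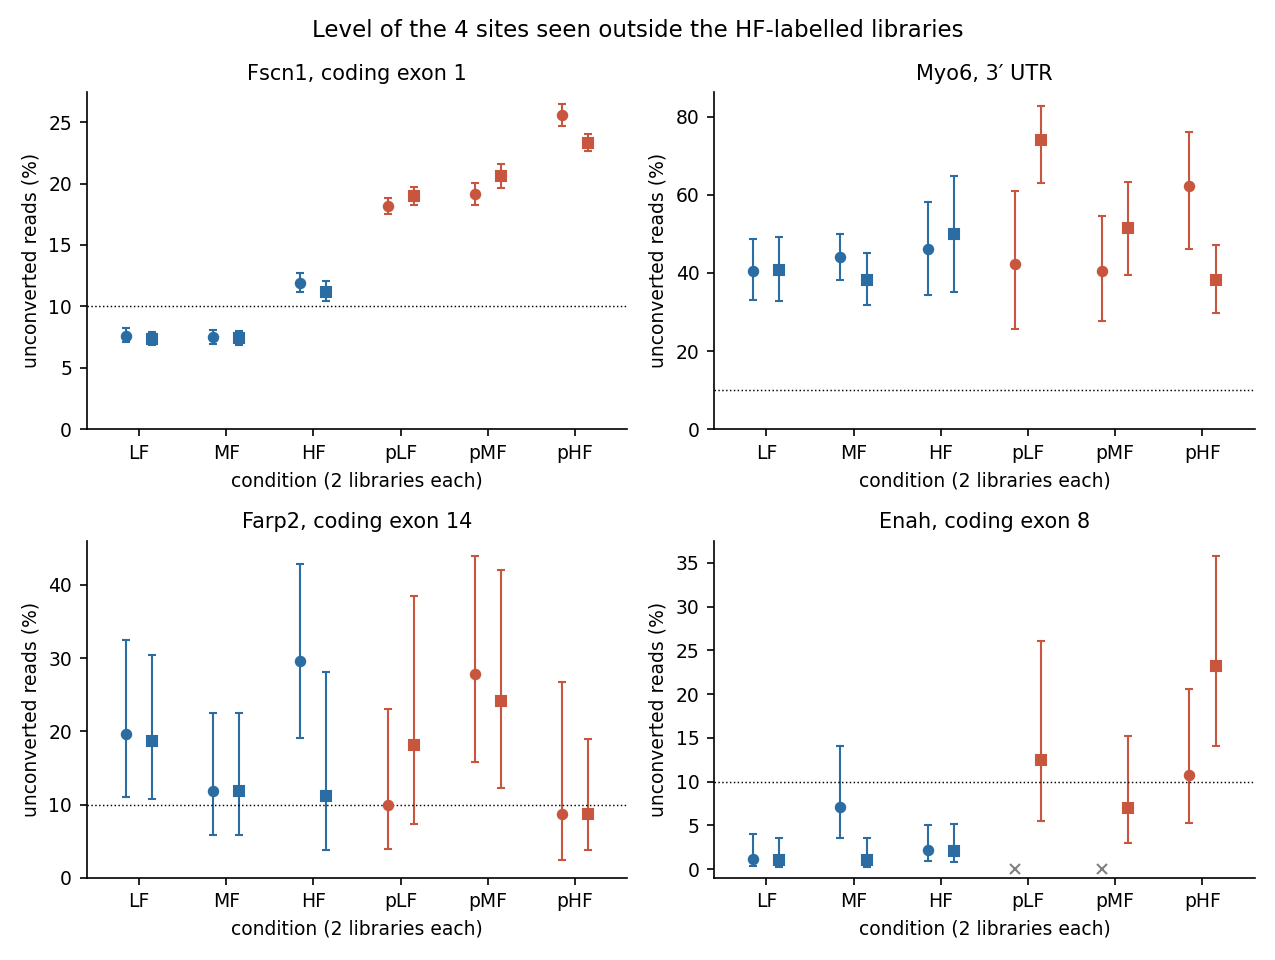
Methylation level (unconverted reads, %) of the 4 sites that met the rule outside the HF-labelled libraries, by condition, with 1 point per library (circle, replicate 1, and square, replicate 2), bars for 95% Wilson intervals and crosses for libraries that did not list the site. The dotted line marks the 10% threshold, and at the Fscn1 coding site every polysome library (18.1 to 25.6%) lies above every total library (7.37 to 11.9%).

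Between folate concentrations the Fscn1 level differed by fewer points than between fractions. LF and MF differed by 0.0469 points ± 0.135 (SE). Within polysome mRNA, pHF was above pMF by 4.36 points over pooled reads, and its lower replicate (23.3%) was above the higher pMF replicate (20.6%). With a library left out it was 3.48 to 5.73 points, and the means differed by 4.58 points ± 1.35 (SE). pLF minus pMF was -1.29 points ± 0.852 (SE), and over pooled reads it was -0.844 without pLF replicate 1 and -0.573 without pMF replicate 2. The HF-labelled mean was 4.10 points above the MF mean ± 0.358 (SE). Over sites of all genes that met the rule in either condition, HF minus MF had a median of 18.1 points over pooled reads. There 87.1% of 1138 sites were higher in the HF-labelled libraries. For pHF minus pMF the median was 0 at 703 sites (10th to 90th percentile -4.66 to 6.89), a range that holds the Fscn1 value.

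Cytosines beside the Fscn1 coding site were almost fully converted in the same libraries. Within 25 bases lay 13 other cytosines with 153 values at a coverage of at least 20, of which the highest was 1.50% and the median 0.0549%. Pooled within a library, they were 0.0521 to 0.0662% unconverted in the LF and MF libraries, 0.127% and 0.181% in the HF-labelled ones and 0.0459 to 0.0759% in polysome libraries. The LF and MF range thus lay inside the polysome range, and the HF-labelled libraries were above both. Their highest values lay 25 bases before the site (0.780% and 1.50%) and 21 bases after it (0.238% and 0.249%). At the remaining neighbours the highest HF-labelled value was 0.105%. The remaining listed cytosines of Fscn1 were 0.0695 to 0.107% unconverted in a library. Just outside the rule in this gene, the next cytosine reached 3.32% in its lower replicate, in the HF-labelled libraries, and outside them the next was 2.02%, in pLF.

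**Figure D2:**
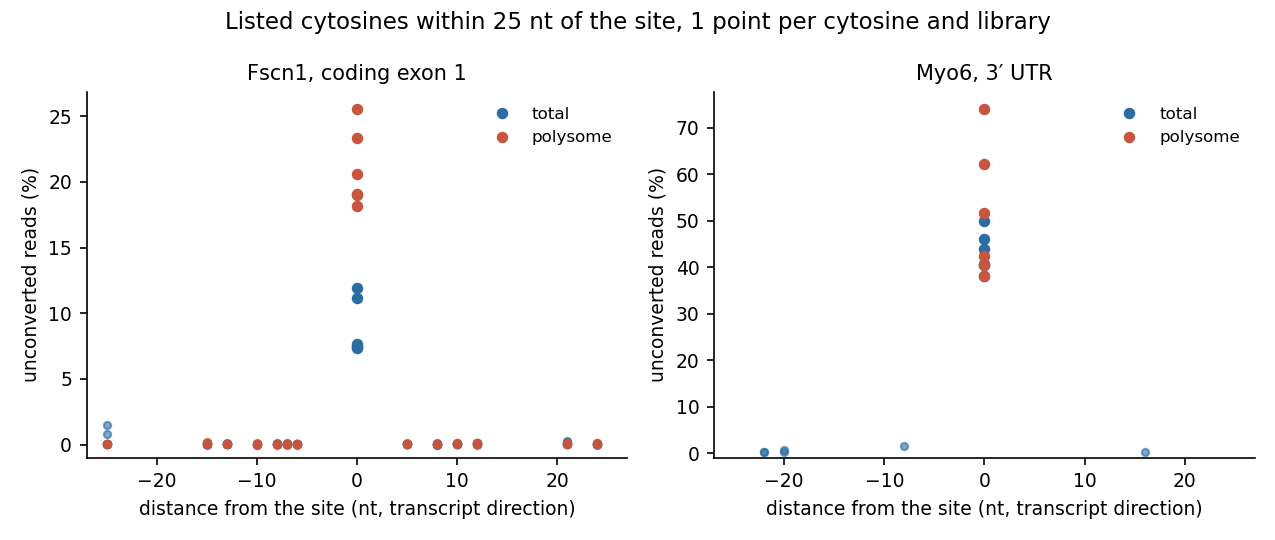
Methylation level (unconverted reads, %) of listed cytosines at a coverage of at least 20 within 25 nt of the Fscn1 coding site and the Myo6 3′ UTR site (1 point per cytosine and library), by distance from the site in nt, with total and polysome libraries in separate colours. The site at distance 0 stands above its listed neighbours, which reached at most 1.50% at Fscn1 and 1.64% at Myo6. The Myo6 neighbours are 6 values at 4 cytosines, all from LF and MF libraries. No HF-labelled or polysome library listed a neighbour there.

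Myo6 carried the site with the highest level outside the HF-labelled libraries, and it met the rule in all 6 conditions. It is at chr9:80310366 on the plus strand, in the 3′ UTR, in exon 33 of 33 of Myo6-201 (gene ENSMUSG00000033577, chr9:80165031-80311729), 2495 bases past the stop codon, and in 4 of 6 coding transcripts. Over all genes 39 of 6462 sites (0.604%) met the rule in 6 conditions. In total mRNA 60 of 148 reads (40.5%) and 55 of 135 (40.7%) were unconverted in LF, 120 of 273 (44.0%) and 76 of 199 (38.2%) in MF, and 29 of 63 (46.0%) and 20 of 40 (50%) in the HF-labelled replicates. In polysome mRNA the counts were 11 of 26 (42.3%) and 54 of 73 (74.0%) in pLF, 19 of 47 (40.4%) and 33 of 64 (51.6%) in pMF, and 23 of 37 (62.2%) and 45 of 118 (38.1%) in pHF. The 2 fractions overlapped, and pLF replicate 2 and pHF replicate 1 were the 2 highest libraries.

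The condition means of the Myo6 3′ UTR site were 40.6% ± 0.142 (SD, n = 2) in LF, 41.1% ± 4.08 in MF and 48.0% ± 2.81 in HF, and 58.1% ± 22.4 in pLF, 46.0% ± 7.88 in pMF and 50.1% ± 17.0 in pHF. Replicates of pLF and pHF thus spread more widely than those of any total condition. Polysome was above total by 8.18 points on average. Leaving out pHF replicate 2 gave 12.2 points, leaving out pLF replicate 2 gave 2.91, and leaving out the libraries labelled HF and pHF gave 11.2. The pLF against LF difference over pooled reads was 25 points, but it was 1.67 without pLF replicate 2, and the means differed by 17.5 points ± 15.8 (SE). The other 6 comparisons gave differences of -3.70 to 18.8 points over pooled reads. The largest of them, pLF against pMF, was 27.1 points without pLF replicate 1 and -4.54 without pLF replicate 2. Pooling turned the sign for pHF, whose mean was 2.13 points above HF and 4.15 above pMF. Over pooled reads these differences were -3.70 and -2.98 points.

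The Farp2 site was read at low coverage, 22 to 59 in every library, and its order of conditions differed from those of Fscn1 and Myo6. It is at chr1:93600018 on the plus strand, in exon 14 of 27 of Farp2-201 (gene ENSMUSG00000034066, chr1:93512079-93621976), base 1513 of 3195 of the coding sequence and in 1 of 2 coding transcripts. In total mRNA 10 of 51 reads (19.6%) and 11 of 59 (18.6%) were unconverted in LF, 7 of 59 (11.9%) in each MF replicate, and 16 of 54 (29.6%) and 3 of 27 (11.1%) in the HF-labelled replicates. In polysome mRNA the counts were 4 of 40 (10.0%) and 4 of 22 (18.2%) in pLF, 10 of 36 (27.8%) and 7 of 29 (24.1%) in pMF, and 2 of 23 (8.70%) and 5 of 57 (8.77%) in pHF. Both fractions spanned nearly the same range, with pMF high and pHF low within polysome mRNA.

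At these depths a single library bounds the Farp2 level loosely: the 95% Wilson interval was 5.87 to 22.5% for each MF replicate and 15.8 to 44.0% for pMF replicate 1, covering counting error only. Polysome and total differed by -0.859 points on average. The sign turned without the libraries labelled HF and pHF (4.53 points), without HF replicate 1 (2.23) and without pLF replicate 1 (0.504). pMF exceeded MF by 14.3 points over pooled reads, and by 12.3 to 15.9 with a library left out. The means differed by 14.1 points ± 1.82 (SE). The MF replicates had the same counts (SD 0), so this SE comes from the pMF replicates alone. It does not show the counting error, and the intervals of MF and of pMF replicate 1 given above overlap. LF exceeded MF by 7.23 points over pooled reads. Farp2 met the rule in LF, MF and pMF, the last with the highest mean, 26.0% ± 2.57 (SD, n = 2).

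The Enah site met the rule only in pHF, and its level was at most 7.14% in total mRNA. It is at chr1:181919353 on the minus strand, in exon 8 of 15 of Enah-201 (gene ENSMUSG00000022995, chr1:181896384-182019990), base 1892 of 2412 of the coding sequence, and in 8 of 9 coding transcripts. In total mRNA the level was 1.12% and 1.01% in LF at coverages of 178 and 199, 7.14% and 1.00% in MF at 98 and 200, and 2.17% and 2.04% in the HF-labelled replicates at 230 and 197. In polysome mRNA it was 12.5% in pLF replicate 2 at a coverage of 40, 6.94% in pMF replicate 2 at 73, and 10.8% and 23.2% in pHF at 65 and 56. The first replicates of pLF and pMF did not list the site, so they had under 10 reads or no unconverted read there. The listed polysome libraries were all above the total libraries but for pMF replicate 2, which lay below MF replicate 1. The pHF mean of 17.0% ± 8.80 (SD, n = 2) rested on 7 and 13 unconverted reads.

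The remaining 2 sites were called in the HF-labelled libraries alone. The Fscn1 3′ UTR site is at chr5:142973029 on the plus strand, in exon 5 of 5 and 931 bases past the stop codon. It had 24 of 39 reads (61.5%) and 18 of 27 (66.7%) unconverted in the HF-labelled replicates, against 1 of 25 in LF replicate 2, 1 of 104 in pLF replicate 1 and 5 of 181 in pLF replicate 2, the only other libraries that list it. The HF-labelled level was thus far above the 3 others. The Myo6 coding site is at chr9:80258537 on the plus strand, in exon 12 of 33, and base 1203 of 3786 of the coding sequence. It had 47 of 89 reads (52.8%) and 46 of 77 (59.7%) unconverted there and was listed in no other library.

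At both positions the coverage in the HF-labelled libraries fell sharply ahead of the site. At the Fscn1 3′ UTR site it was 501 and 498 at the cytosine 7 bases before the site, 39 and 27 at the site, and 12 at the next base in HF replicate 1. LF replicate 2 dropped there too, but further upstream. It had 567 at the cytosine 10 bases before, 63 at the one 9 bases before and 25 at the site. Its level was 1 in 25 reads. HF-labelled coverage was still 503 and 506 at 9 bases before. Coverage of pLF replicate 2 fell as well, from 646 at 10 bases before to 264 at 9 bases before and 181 at the site. In pLF replicate 1 it was 304 at 10 bases before and 104 at the site. At the Myo6 coding site the coverage of HF replicate 1 was 1216 at the cytosine 7 bases before and 89 at the site. In HF replicate 2 the nearest listed cytosine lay 17 bases before, at 1072, against 77 at the site. The site levels there rest on the few reads that remain after the drop, and both sites follow the run of G printed above. Whether the run and the drop have a part in the levels was not tested.

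**Figure D3:**
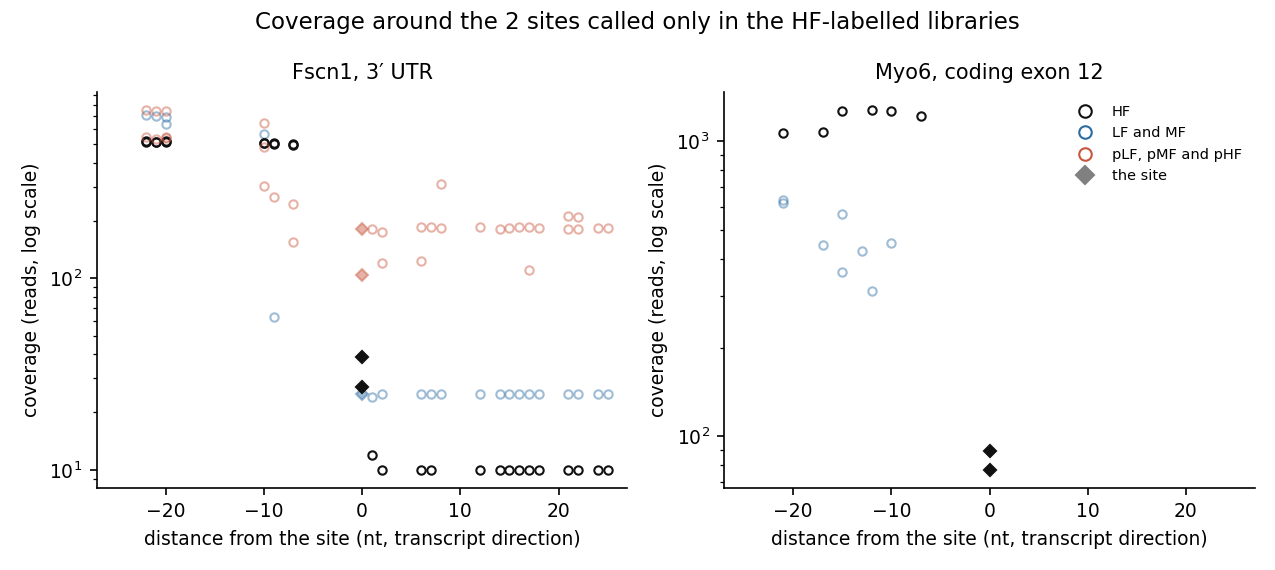
Coverage (reads, log scale) of listed cytosines within 25 nt of the 2 sites called only in the HF-labelled libraries, by distance from the site in nt, with HF-labelled, other total and polysome libraries in separate colours and the site as a diamond. HF-labelled coverage at the Fscn1 3′ UTR site drops from 501 and 498 reads 7 nt before the site to 39 and 27 at it.

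The coverage of the genes, which the rule used only through its minimum of 20, differed between the fractions for Enah over its listed cytosines. It was taken as the log2 median coverage of a gene over its listed cytosines, relative to the median gene of the library, and tested with limma over 7472 genes. In bulk samples, fewer cells with an mRNA and less of it per cell cannot be told apart. The median Enah coverage of the LF replicates was 859 and 799, that of the MF replicates 699 and 341, and that of the HF-labelled ones 468 and 764.5. In polysome mRNA it was 86 and 74 for pLF, 203 and 84 for pMF, and 65 and 338.5 for pHF. All 6 polysome libraries were below all 6 total libraries in these reads, but after centring pMF replicate 1 (-0.49 log2) lay above MF replicate 2 (-0.73 log2). The polysome level was lower by 1.97 log2 (difference -1.97, SE 0.347, adjusted p = 0.00408 by limma), or 0.255-fold, where 30.7% of genes were called, 14.2% as lower and 16.5% as higher. Without the libraries labelled HF and pHF the difference was -1.84 (adjusted p = 0.0180). By concentration it was -2.73 for pLF against LF (adjusted p = 0.0282, 9.89% of genes called, lost with any of the 4 libraries left out), -0.95 for pMF against MF (adjusted p = 0.336, 8.59% called, -1.54 to -0.35 with a library left out) and -2.24 for pHF against HF (adjusted p = 0.0542, 8.19% called), by limma. Polysome libraries also listed fewer Enah cytosines, 42 to 129 against 244 to 456. No Enah cytosine was listed in all 12 libraries. The pLF and LF libraries shared 4 and the pHF and HF libraries 1, too few for a test. The Enah difference thus compares largely different cytosines in the 2 fractions. Over the 4 shared by pLF and LF, mean coverage, not centred, was 251 and 337.25 in pLF against 1955.25 and 2148 in LF. At the 1 shared by pHF and HF it was 65 and 56 in pHF against 230 and 197 in HF. These shared cytosines had fewer reads in polysome mRNA, but the difference over them was not tested.

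For Fscn1 the coverage result turned with the cytosines used. The median coverage ran from 3059 to 6374 reads in total and from 2868.5 to 8678.5 in polysome libraries, and the fractions overlapped. Over all listed cytosines, polysome minus total was 0.54 log2 (SE 0.316, adjusted p = 0.221 by limma), and 0.81 without pLF replicate 2 (adjusted p = 0.0461). Without the libraries labelled HF and pHF it was 0.63 (adjusted p = 0.308 by limma). Over the 198 Fscn1 cytosines listed in all 12 libraries it was -0.36 log2 (SE 0.136, adjusted p = 0.0310 by limma), where 78.8% of 1337 genes were called. The higher level of the coding site in polysome mRNA therefore stood beside a polysome coverage whose direction was not settled. Myo6 had a median coverage of 192 to 855.5 in total and 53.5 to 679 in polysome libraries, and the difference was -0.60 log2 (SE 0.401, adjusted p = 0.279 by limma). Without pHF replicate 2 it was -1.01 (adjusted p = 0.0171), and without the libraries labelled HF and pHF -0.61 (adjusted p = 0.127 by limma). Polysome libraries listed 45 to 282 Myo6 cytosines against 234 to 535 in total libraries, and only 2 were listed in all 12. The pLF and LF libraries shared 8, pMF and MF 3, and pHF and HF 8, too few for a test. The Myo6 difference thus also compares largely different cytosines, and whether it holds over shared ones was not tested. Farp2 could not be tested, since 5 polysome libraries listed only 4 to 8 of its cytosines.

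**Figure D4:**
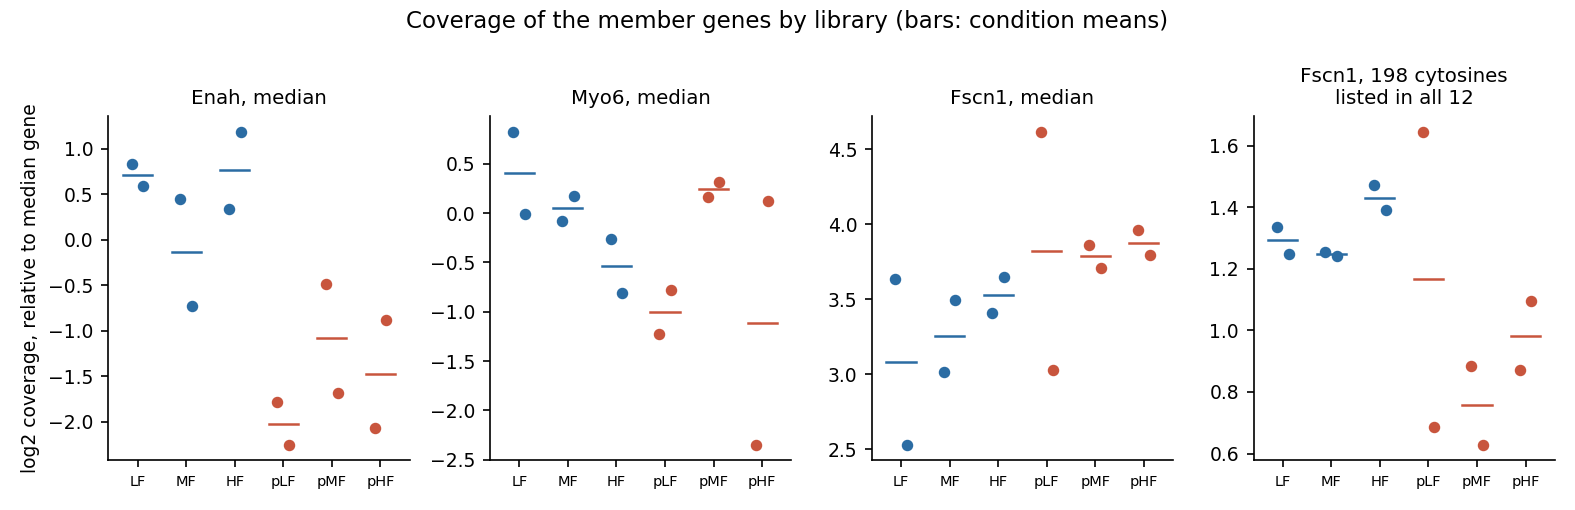
Coverage of the member genes by condition, as log2 of the median over listed cytosines relative to the median gene of the library, with 1 point per library and bars for condition means, and on the right the Fscn1 value over the 198 cytosines listed in all 12 libraries. Farp2, not testable, is left out. Enah lies between -0.73 and 1.18 in total and between -2.25 and -0.49 in polysome libraries.

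None of the 3 genes tested passed in any of the 4 folate comparisons of coverage. The share of all genes called was 0.0535% for LF against MF, 2.01% for HF against MF, 0.335% for pLF against pMF and 0.0669% for pHF against pMF. LF minus MF was 0.85 log2 for Enah (0.26 without MF replicate 2 and 1.44 without MF replicate 1), -0.17 for Fscn1 and 0.36 for Myo6, each with an adjusted p of 0.999948 by limma. HF minus MF was 0.90 log2 for Enah (0.31 without MF replicate 2), 0.27 for Fscn1 (0.0347 without MF replicate 1) and -0.58 for Myo6 (-0.31 without HF replicate 2), with adjusted p-values of 0.458 to 0.835 by limma. pLF minus pMF was -0.93 log2 for Enah (-0.34 without pMF replicate 1), 0.0354 for Fscn1 and -1.25 for Myo6 (adjusted p = 0.697 to 0.993 by limma). pHF minus pMF was -0.39 log2 for Enah, 0.0928 for Fscn1 and -1.35 for Myo6 (adjusted p = 0.636 to 0.989 by limma). The Fscn1 value was 0.00922 to 0.176 with a library left out. The Myo6 value was -2.59 without pHF replicate 2 and -0.12 without pHF replicate 1. The largest of these differences, those of Myo6 in polysome mRNA, thus did not pass either. Over cytosines listed in all 4 libraries compared, LF minus MF was -0.0081 for Enah (54 cytosines), 0.08 for Fscn1 (490) and -0.08 for Myo6 (21), with the sign turned in each. On that basis HF minus MF was 0.22 log2 for Fscn1 (adjusted p = 0.00758) and -0.48 for Myo6 (adjusted p = 0.000106) by limma, where 84.0% of 3480 genes were called. The difference between HF-labelled and MF libraries that most genes show and the label cannot be told apart there.

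Other actin regulators were followed in a list of 60 genes, of which 55 could be tested for coverage. Between polysome and total, 4 were higher (Pfn1, Capzb, Tpm1 and Myl6), 19 lower and 32 not called, where 16.5% of all genes tested were higher and 14.2% lower. The median was -0.29 log2 against 0.02 over all genes. Over cytosines listed in all 12 libraries 6 were higher and 17 lower of 32, where 78.8% of all genes were called. Without the libraries labelled HF and pHF, 4 were higher and 17 lower, where 16.0% of all genes were higher and 12.8% lower, and the median was -0.49. By concentration, 3 of 55 were higher and 6 lower for pLF against LF (median -0.20 log2), where 5.13% of all genes were higher and 4.76% lower. For pMF against MF 1 was higher and 5 lower (median -0.73), where 4.58% and 4.01% of all genes were. For pHF against HF 3 were higher and 2 lower (median -0.18), where 4.03% and 4.16% of all genes were. The pHF against HF counts were thus near the share over all genes. The lower counts for pLF against LF and pMF against MF were above it, at only 6 and 5 genes. For pHF against HF over cytosines listed in all 12 libraries, 11 were higher and 10 lower of 32, with a median of 0.12, where 73.4% of all genes were called. Myl6, a myosin light chain, was higher by 1.79 log2 (SE 0.205, adjusted p = 0.000774 by limma), and Tpm1, the filament-binding tropomyosin 1, by 1.72 (adjusted p = 0.0018 by limma). Both kept this direction over cytosines listed in all 12 libraries, at 0.74 and 0.71. Capzb, a subunit of the protein that caps filament ends, was 1.53 log2 higher (adjusted p = 0.02 by limma) and -0.39 on that basis (adjusted p = 8.82e-05 by limma), a turned sign. The lowest were Pls3, the filament bundler plastin 3, at -2.50 log2 (adjusted p = 0.00432), Vcl, the adhesion protein vinculin, at -2.45 (adjusted p = 0.00953), and Fmnl2, a formin, at -2.40 (adjusted p = 0.0163), by limma. None of the 55 genes was called in any of the 4 folate comparisons by limma, while over cytosines listed in all 12 libraries 8 were higher and 17 lower of 32 for HF against MF, where 66.3% of all genes were called.

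**Figure D5:**
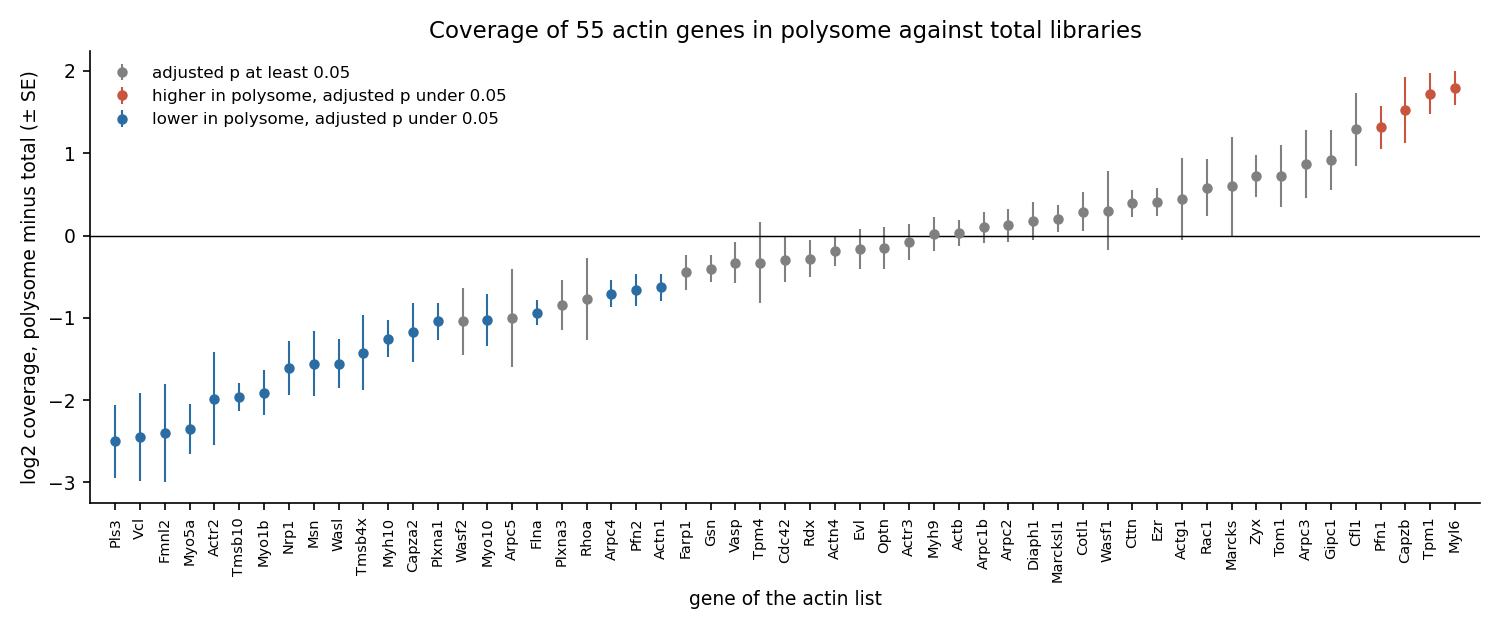
Difference in coverage between polysome and total libraries (log2, with SE) for the 55 tested genes of the actin list, in order of size, with called and uncalled genes in separate colours. The calls are 4 higher and 19 lower, from -2.50 for Pls3 to 1.79 for Myl6.

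Sites of this list lay mostly in the HF-labelled libraries. In all, 26 of the 60 genes held 76 sites, but only 4 genes held the 9 sites that met the rule in another condition: Actg1 (2), Cotl1 (1), Plxna3 (1) and Tmsb4x (5). Over all genes 3872 of 6462 sites did so. The sites within Actg1, and those within Tmsb4x, lie close together with similar unconverted counts in most libraries, so the 9 may not all be separate. Plxna3 and Tmsb4x each had 1 further site in HF-labelled libraries alone. The other 22 genes had all of theirs there: Cfl1 (21 sites), Pfn1 (15), Msn (8), Capzb (2), Myh10 (2), and with 1 site each Actb, Actn1, Arpc1b, Diaph1, Farp1, Flna, Fmnl2, Marcksl1, Myh9, Myl12b, Rac1, Tmsb10, Tpm1, Tpm4, Vcl, Wasf2 and Zyx. Cotl1, which encodes the actin-binding coactosin-like protein, had its site at chr8:119809704 on the minus strand, at 6.38 to 11.3% in total and 22.6 to 30.9% in polysome libraries, with no overlap, as at the Fscn1 coding site. Plxna3, a semaphorin co-receptor of the plexin family, had this site at chrX:74338361 on the plus strand, at 24.1 to 36.1% in total and 17.2 to 43.1% in polysome libraries, which overlapped. These levels chose the sites and were given no test.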

How the data were processed

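RNA BS-seq of 12 libraries was analysed from the lists of called cytosines. Reads were trimmed with fastp, mapped uniquely to mm10 with meRanGh, called with meRanCall and annotated to Ensembl genes by the authors. The deposited counts are coverage and unconverted reads per cytosine, with no normalization between libraries. The level the authors deposited is the fraction of unconverted among unconverted and converted reads. A list holds cytosines with 10 or more reads and at least 1 unconverted read, so one with no unconverted read is absent, and they precede the authors' later filters. The submitters' processing notes name R 4.1.1.

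Positions that the lists mark as variant were excluded. The member genes, lists and motifs were chosen with earlier results of these data known. Levels were compared between conditions with Fisher's exact test on pooled reads and with limma 3.58.1 (R 4.3.3) on log odds (pseudocount 0.5). These tests took the sites of all genes that met the rule in either condition compared, with 20 or more reads in each of the 4 libraries. Fractions were also compared with an exact permutation test over libraries within each folate concentration. No p-value is given for the level of a described site, since the levels chose the sites. Gene coverage was tested with limma for genes with at least 10 listed cytosines in every library. Gene coverage and marker counts used only cytosines named with a single gene. The genes named are the 4 members and, of the actin list of 60 genes, those with a site and the 3 highest and 3 lowest of the calls for coverage. Sequences and features came from GRCm38 and GENCODE vM21. Python 3.11.15, pandas 2.3.3, numpy 2.4.6, scipy 1.17.1, samtools 1.23.1 and matplotlib 3.10.9 were used. Steps were tested on simulated data. Summed coverage was 1186213013 to 2857966129 per library. Intervals cover counting error only, since reads are PCR products without molecular identifiers. Alternatives changed the coverage, read and level minimums, the test, the cytosines used, the scaling and the libraries included. The fits on cytosines listed in the 4 libraries compared, and the folate fits without the libraries labelled HF and pHF, were chosen after seeing the data.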

Additional observations from a re-analysis of the deposited data

Results flagged for a closer look

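Positions of the 4 genes with a T in the genome and a C in the reads were listed apart from the cytosines used above. The HF-labelled libraries held 41 and 35 of them, of which 4 and 1 were at a level of at least 10%. The other 10 libraries held 1 to 13, and none of these reached 10%. In each library Fscn1 held the most of them.

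In pHF replicate 2, Farp2 had 36 cytosines at a coverage of 10 with every read unconverted. They lie at chr1:93564493-93564808, and none is in an annotated exon. No other library listed such a group.

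At the Farp2 coding site, the difference between polysome and total mRNA ran in opposite directions at different folate concentrations, and these contrasts were not tested against each other. The mean level was lower in pLF than in LF, with a difference of -5.04 percentage points, and higher in pMF than in MF, with a difference of 14.1 points. It was lower in pHF than in HF, with a difference of -11.6 points. LF exceeded MF by 7.26 points, while pLF minus pMF was -11.9 points. Over pooled reads pLF minus LF was -6.19 points, and -0.909 without pLF replicate 1. pLF replicate 2 (18.2%) was close to LF replicate 2 (18.6%), and HF replicate 2 (11.1%) to the pHF replicates (8.70 and 8.77%). Each condition had 2 libraries read at a coverage of 22 to 59.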

How the results depend on the processing

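Over 24 results on gene coverage, 194 of 226 alternative values kept their direction and side of the threshold. The 6 sites remained 6 in number at a coverage minimum of 10 or 3 unconverted reads, were 5 at a coverage of 50, a level of 20% or 10 reads, and 4 without the HF-labelled libraries. The site lost at a coverage of 50 was the Fscn1 3′ UTR site, at 39 and 27 reads.

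Without the libraries labelled HF and pHF, the difference between fractions was 11.7 points at the Fscn1 coding site and 4.53 at Farp2. On the log2 odds scale of limma, the difference was -0.12 for Fscn1 pLF against pMF and 0.38 for pHF against pMF, 1.07 for Myo6 pLF against LF, 0.23 for Myo6 pHF against pMF and 0.12 for pHF against HF, and 1.35 for Farp2 pMF against MF. With cytosines listed in all 12 libraries, Fscn1 coverage differed by 0.0447 log2 for LF against MF, -0.13 for pLF against LF, -0.49 for pMF against MF, -0.45 for pHF against HF and -0.36 for polysome against total. With cytosines listed in the 4 libraries compared, LF minus MF was -0.0081 for Enah, 0.0779 for Fscn1 and -0.0761 for Myo6, HF minus MF was 0.22 for Fscn1 and -0.48 for Myo6, and Fscn1 differed by -0.25 for pMF against MF and -0.33 for pHF against HF. Scaled by summed coverage, the values were -0.0338 for Fscn1 HF against MF, -0.14 for Fscn1 pLF against pMF, 0.0925 for Myo6 pHF against HF and -2.73 for Enah pLF against LF (adjusted p = 0.0665 by limma). With at least 30 listed cytosines, Enah pHF against HF was -2.30 (adjusted p = 0.0407 by limma). The cause of these changes was not tested.

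Leaving out each library in turn, levels ranged from -3.95 to 2.23 points for Farp2 by fraction (2.23 and 0.504 with the sign turned), 2.91 to 13.5 for Myo6 by fraction, -3.32 to 2.45 for Myo6 LF against MF, -4.54 to 27.1 for pLF against pMF, -8.71 to 15.3 for pHF against pMF (15.3 and 3.45 with the sign turned), 1.67 to 33.3 for pLF against LF, -1.10 to 10.0 for pMF against MF and -9.44 to 14.6 for pHF against HF. They ranged from -2.06 to -0.573 for Fscn1 pLF against pMF and 12.3 to 15.9 for Farp2 pMF against MF. Coverage ranged from 0.26 to 1.44 log2 for Enah LF against MF, -0.72 to 0.38 for Fscn1 LF against MF (0.38 and 0.0696 with the sign turned), -0.0583 to 0.77 for Myo6 LF against MF, -0.76 to 0.83 for Fscn1 pLF against pMF (-0.76 and -0.0420), -0.99 to 0.20 for Enah pHF against pMF (0.204 and 0.20 with the sign turned), -2.96 to -2.50 for Enah pLF against LF, -0.0581 to 1.53 for Fscn1 pLF against LF, -1.81 to 0.65 for Myo6 pHF against HF, 0.28 to 0.81 for Fscn1 polysome against total and -1.01 to -0.19 for Myo6.

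Gene coverage showed no pairing by replicate number: the 15 correlations of deviations between same-numbered libraries ran from -0.0314 to 0.0392. The labels do not say whether same-numbered libraries share a culture, and these correlations cannot settle it. With the replicate number as a block, the coverage results of the 3 genes tested kept their side of the threshold, with Enah polysome against total at an adjusted p of 0.00751 by limma. The differences themselves cannot move in this balanced design (12.1 points between fractions at the Fscn1 coding site, -0.859 at Farp2 and 8.18 at Myo6, and -1.97 log2 for Enah coverage). Over all genes the block took the coverage calls by limma from 150 to 39 for HF against MF, from 25 to 7 for pLF against pMF, from 4 to 0 for LF against MF (133 at an unadjusted p under 0.05) and from 5 to 0 for pHF against pMF (661).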

Other observations

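Actg1, which encodes cytoplasmic gamma-actin, had 2 sites at chr11:120345849 and chr11:120345855. In polysome libraries their levels ran from 5.11 to 17.0% and from 1.13 to 18.9%, and in the 3 total libraries that listed them from 10.6 to 17.1% and from 10.2 to 19.0%. Tmsb4x, which encodes the monomer-binding thymosin beta 4, had 5 sites between chrX:167207152 and chrX:167207178 that met the rule outside the HF-labelled libraries. Unconverted counts were nearly the same at all 5, with 13 or 14 in MF replicate 2 and 6 or 7 in LF replicate 1. Whether the same reads were unconverted at all 5 was not tested, so they may not be separate sites. At the first of them the LF and MF libraries ranged from 1.43 to 13.2%, the HF-labelled libraries were at 77.3% and 57.1% at coverages of 22 and 14, and polysome libraries ranged from 0.281 to 1.69% at coverages of 249 to 862.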
